A study of Mus musculus with 354 samples.

Results

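The genes described here are 42 S phase and DNA replication genes, a standard list for scoring S phase in single cells, which were read in all cells of the study by gene symbol. All 42 were found once each among the 55367 genes of the count files, and all 42 passed the filter on low counts that left 21416 genes for testing. The list was chosen by gene function and not from the counts, but with earlier results of these data known. The study used SMART-Seq Single PLUS, a full-length method without molecular identifiers, on single GFP-positive supporting cells (SCs) of the mouse cochlea, sorted by fluorescence at postnatal day 3. Of the 354 cells, 177 came from CA-ERBB2 pups and 177 from Control pups, on 3 plates of 59 cells per genotype.

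Pups of both genotypes carried Fgfr3-iCre, a tamoxifen-dependent recombinase, together with the reporter allele ROSA-floxed-rtTA/GFP. CA-ERBB2 pups had in addition TetON-CAERBB2, which encodes a constitutively active ERBB2 receptor, and their Control littermates lacked it. The protocol text, the same for every sample, gives tamoxifen at 75 mg/kg to start recombination and doxycycline at 100 mg/kg to switch the transgene on. A treatment tag was attached only to the CA-ERBB2 cells. Fgfr3-iCre is active in Deiters' cells, pillar cells and Hensen's cells and in some outer hair cells, more at the apex, so the sorted cells were a mixture. Each plate pooled several unsexed pups, and the plate was the replicate. The study's text says that the cells came from 3 separate sorting experiments, and the labels do not state that a plate number stands for one of them, so the p-values below measure the spread between plates.

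During S phase a cell copies its DNA once. The MCM2 to MCM7 proteins are loaded on origins as a helicase ring, CDC45 and the GINS complex join the ring to activate it, and polymerases, the sliding clamp PCNA and its loader follow at the fork. Nucleotide enzymes, histone chaperones and checkpoint proteins keep pace with the fork, and many of these genes are transcribed together under E2F factors. SCs of the mammalian organ of Corti leave the cell cycle before birth.

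The plates differed more among themselves than the genotypes did. Plate totals lay between 108357282 and 188636940 counts, and the total of a cell between 1443 and 5178221. Plate 1 of both genotypes was rich in genes, with a median of 10198 genes detected per CA-ERBB2 cell and 8679 per Control cell, against 1742 to 2954 on the other plates. Control plate 2 held 23 cells under 100000 counts and Control plate 3 held 10, against 0 or 1 on each CA-ERBB2 plate. Wells A12 to D12 of each plate, 24 in all, had a median of 15538 genes detected. No 2 cells had identical files. *Erbb2*, the check of the genotypes, stood at 106, 46.1 and 120 CPM (counts scaled to a total of 1000000, with TMM factors for plate sums) on the CA-ERBB2 plates and at 19.8, 3.24 and 12.4 CPM on the Control plates, without overlap. The 12 SC markers summed to 4259 to 5107 CPM on CA-ERBB2 plates and 3107 to 5675 CPM on Control plates, with none at 0. Erythroid markers, 4 genes, summed to 16.9 to 379 CPM on CA-ERBB2 plates and 2888 to 6237 CPM on Control plates. The 6 hair cell markers summed to 97.8 to 154 CPM on CA-ERBB2 plates and 38.8 to 1064 CPM on Control plates. The network genes *Spp1*, *Timp1*, *Mmp9* and *Dmp1* summed to 11350 to 114700 CPM on CA-ERBB2 plates and 246 to 1310 CPM on Control plates. The part of these shifts in the S phase results was not tested.

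The first question was which S phase genes differed between the genotypes when the counts of each plate were summed. None of the 42 genes passed an adjusted p of 0.05 in edgeR's quasi-likelihood test on 3 plates against 3, and the lowest adjusted p was 0.911. The background was 0.00467% of all genes tested, which was 1 gene. At an unadjusted p under 0.05, 2 of the 42 were higher in CA-ERBB2 cells (*Rfc2* and *Rpa2*) where 2.77% of all genes were, and 0 were lower where 2.39% of all genes were. DESeq2 gave 5 genes at that level, 4 of them higher where 3.86% of all genes were. It also called none of the 42 after adjustment, against 235 of all 21416 genes. The median log2 fold change of the 42 genes was 0.46, against -0.02 over all genes tested, and 27 of 42 (64.3%) lay above 0 against 49.2% of all genes. A plate sum cannot tell fewer cells that express a gene from less RNA per cell.

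The 3 CA-ERBB2 plates lay above all 3 Control plates for 4 of the 42 genes, *Rfc2*, *Gins2*, *Cdc45* and *E2f8*. This held for 4.2% of all genes tested. No S phase gene had all its CA-ERBB2 plates below the Control plates, where 4.88% of all genes did. With plate totals in place of TMM factors, *Gins2* overlapped and *Uhrf1* did not. With fewer plates more genes separate. Without CA-ERBB2 plate 1, 11 S phase genes did not overlap, of which 8 were higher (12.4% of all genes were) and the others lower. Without CA-ERBB2 plate 2, 12 were higher without overlap (7.95% of all genes), and without Control plate 2 it was 11 (7.78% of all genes).

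**Figure D1:**
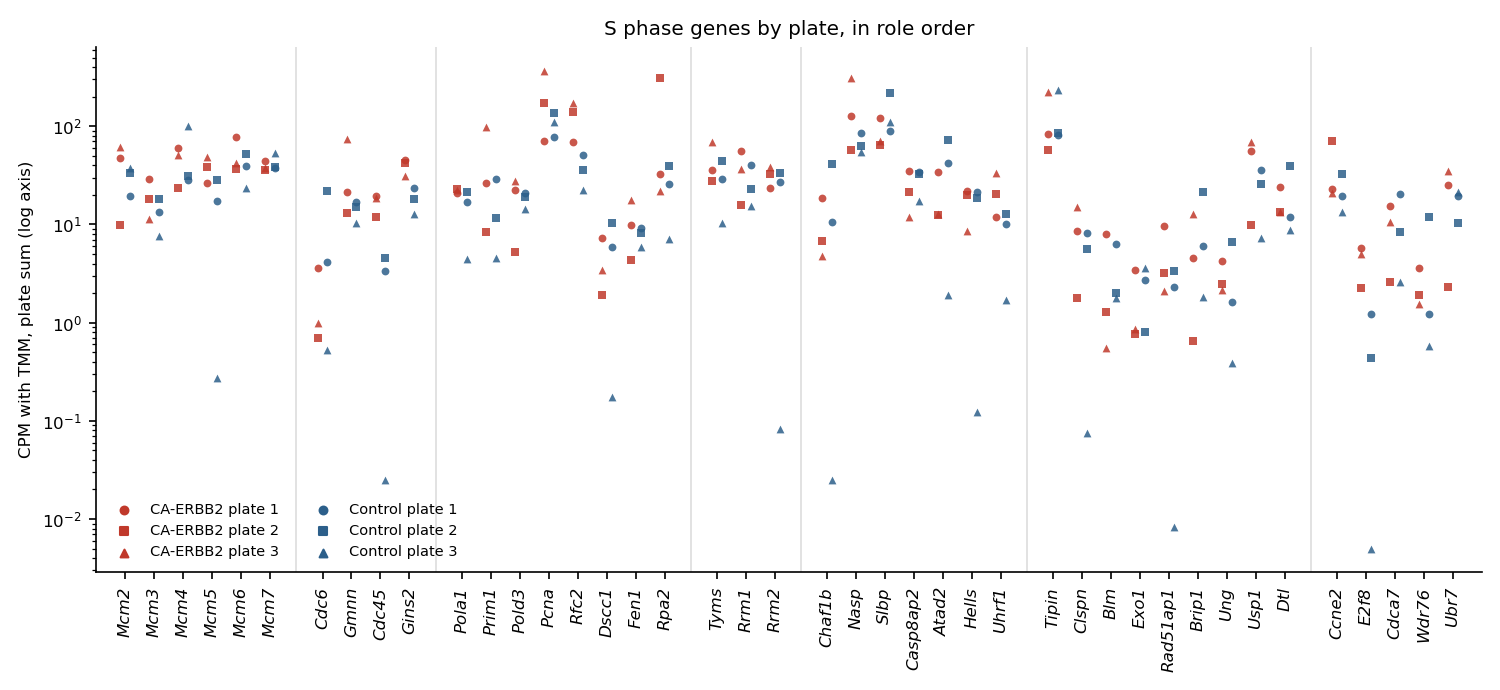
CPM with TMM factors of the 42 S phase genes in the counts summed over each plate, on a log axis, with 1 point a plate (red for CA-ERBB2, blue for Control, and a marker for each plate number) and the genes in the order of their roles. The 4 genes without overlap between the colours are *Cdc45*, *Gins2*, *Rfc2* and *E2f8*, and many low points are Control plate 3. *E2f8*, at 0 on Control plate 3, is drawn at the foot of the axis.

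Among the fork genes, *Rfc2* showed the clearest separation. It encodes a subunit of replication factor C, the loader of PCNA, and lies at chr5:134581366-134601805 on the plus strand of GRCm38. Its level was 69.8, 139 and 175 CPM on CA-ERBB2 plates 1 to 3 and 51.1, 36.0 and 22.4 CPM on Control plates 1 to 3. The lowest CA-ERBB2 plate thus lay above the highest Control plate. The log2 fold change was 1.81 with a standard error of 0.57 (edgeR unadjusted p = 0.00954, adjusted p = 0.911). *Rfc2* was detected in 72.9%, 39.0% and 32.2% of cells on the CA-ERBB2 plates and in 67.8%, 27.1% and 18.6% on the Control plates. These shares differed less than the levels. On CA-ERBB2 plate 2, 1 cell with 1792 genes detected held 51.7% of the *Rfc2* counts.

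*Rpa2*, a subunit of the single-strand binding protein RPA, had the other unadjusted p under 0.05. Its level was 32.9, 308 and 21.9 CPM on the CA-ERBB2 plates and 26.1, 39.7 and 7.16 CPM on the Control plates. CA-ERBB2 plate 2 stood apart and the other plates overlapped. On that plate 2 cells held 84.4% of the *Rpa2* counts. The log2 fold change was 2.31 with a standard error of 1.02 (edgeR unadjusted p = 0.0454, adjusted p = 0.911), and it was 0.18 without CA-ERBB2 plate 2.

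*Pcna*, the sliding clamp, was the most abundant of the 42 genes by CPM. Its level was 71.5, 173 and 366 CPM on the CA-ERBB2 plates and 77.3, 135 and 110 CPM on the Control plates, which overlapped. Reads of *Pcna* can also match an annotated pseudogene, *Pcna-ps2*, whose counts came to 8.0% of those of *Pcna*. *Prim1*, the catalytic primase subunit, stood at 26.5, 8.43 and 97.4 CPM on the CA-ERBB2 plates and 29.3, 11.7 and 4.58 CPM on the Control plates. A single cell with 1276 genes detected held 86.2% of the *Prim1* counts of CA-ERBB2 plate 3, the only high value. Of the 8 polymerase and fork genes, 7 had a log2 fold change above 0, and the median was 0.78. The remaining ones were *Pola1*, the polymerase subunit that works with primase (0.63), *Fen1*, the flap endonuclease of Okazaki fragments (0.46), *Pold3*, a subunit of polymerase delta (0.04), and *Dscc1*, a part of an alternative clamp loader (-0.38), each overlapping between the genotypes.

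The licensing and firing genes spread widely, from -2.35 to 2.66. *Cdc45* encodes the protein that joins the helicase ring with GINS, and *Gins2* a GINS subunit. *Cdc45* was at 19.7, 12 and 18.4 CPM on the CA-ERBB2 plates and at 3.36, 4.55 and 0.025 CPM on the Control plates, a log2 fold change of 2.66 with a standard error of 1.38. *Gins2* was at 45.7, 42.6 and 31.5 CPM on the CA-ERBB2 plates and at 23.3, 18.2 and 12.8 CPM on the Control plates, a log2 fold change of 1.14 with a standard error of 0.60. Both separated the genotypes by plate, with an edgeR adjusted p of 0.911. For *Cdc45* 1 cell held 92.0% of the counts of CA-ERBB2 plate 2, whereas no cell held more than 58.2% of the *Gins2* counts of any plate. *Cdc6*, the helicase loader, stood at 3.57, 0.695 and 0.987 CPM on the CA-ERBB2 plates and at 4.17, 22.2 and 0.529 CPM on the Control plates. Its log2 fold change of -2.35, with a standard error of 1.45, was the lowest of the 42, and it was -0.43 without Control plate 2, where 1 cell held 97.7% of the counts. *Gmnn*, whose product blocks relicensing, lay between 13 and 74.5 CPM on CA-ERBB2 plates and between 10.3 and 17.0 CPM on Control plates.

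The 6 MCM genes overlapped between the genotypes without exception, and 4 of the 6 had a log2 fold change above 0. *Mcm5* had the highest, 1.30 with a standard error of 1.13, from 26.4, 38.2 and 48.4 CPM on the CA-ERBB2 plates and 17.3, 28.5 and 0.273 CPM on the Control plates. *Mcm6* stood at 77.2, 36.9 and 42.4 CPM on the CA-ERBB2 plates and 39.0, 52.3 and 23.4 CPM on the Control plates, with a log2 fold change of 0.45. Among the CA-ERBB2 plates, plate 3 was highest for *Mcm5* and plate 1 for *Mcm6*, and Control plate 3 was lowest for both. *Mcm3* was at 29.4, 18.0 and 11.3 CPM on the CA-ERBB2 plates and 13.5, 18.0 and 7.67 CPM on the Control plates. *Mcm2* was at 47.9, 9.97 and 61.2 CPM on the CA-ERBB2 plates and 19.3, 33.1 and 38.0 CPM on the Control plates. *Mcm7* was the most even of the 6, at 44.1, 35.8 and 37.7 CPM on the CA-ERBB2 plates and 37.5, 38.1 and 53.9 CPM on the Control plates. *Mcm4* had its highest level in Control plate 3, at 100.0 CPM, against 28.4 and 31.4 CPM on the other Control plates and 59.5, 23.6 and 50.8 CPM on the CA-ERBB2 plates. In that Control plate 1 cell held 91.4% of the *Mcm4* counts, a cell with 1157 genes detected and 20.4% mitochondrial counts. Its log2 fold change was -0.26, and 0.99 after shallow cells (under 100000 counts) and those with a mitochondrial share of at least 20% were removed.

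The MCM genes are known E2F targets and were often high in the same cells, as described further on. Promoters of the list were therefore searched for E2F motifs. RefSeq promoter windows on GRCm38.p6 were matched for 32 of the 42 genes, with no entry used for *Mcm4*, *Gmnn*, *Gins2*, *Rfc2*, *Dscc1*, *Atad2*, *Tipin*, *Exo1*, *Usp1* and *Ccne2*. The 250 bases before the RefSeq start were searched for TTTCCCGC, TTTCGCGC, TTTGCCGC and TTTGGCGC, forms of the E2F motif, on both strands. At least 1 of these letter strings stood in 9 of the 32 S phase promoters (28.1%), in 9 of 44 promoters of other replication genes (20.5%), in 1 of 29 promoters of G2/M genes (3.45%) and in 1.92% of all 27025 promoters. It stood in 3.11% of the 13092 promoters of genes tested. The median share of G and C was 59.0% in the S phase promoters, 59.2% in those of genes tested and 52.0% in all promoters. Of the 9, the 5 genes that reached 100 CPM in at least 9 of the 16 S-rich cells defined below are printed, 5′ to 3′, with the motif in capitals. Other genes reached that level in at least 9 of these cells without a match, among them *Mcm2*, *Mcm3*, *Pcna*, *Nasp*, *Tyms* and *Rrm1*. Whether the motif went with high levels was not tested. The printed genes are *Mcm5* (plus strand, chr8:75109259-75109508), *Mcm6* (minus strand, chr1:128359706-128359955), *Mcm7* (minus strand, chr5:138171884-138172133), *Hells* (plus strand, chr19:38930740-38930989) and *Dtl* (minus strand, chr1:191575545-191575794).
Mcm5: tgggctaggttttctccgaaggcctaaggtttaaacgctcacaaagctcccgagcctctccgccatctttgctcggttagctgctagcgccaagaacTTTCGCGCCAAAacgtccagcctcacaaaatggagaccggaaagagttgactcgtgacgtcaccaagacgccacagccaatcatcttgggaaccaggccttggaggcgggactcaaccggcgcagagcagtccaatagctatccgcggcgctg
Mcm6: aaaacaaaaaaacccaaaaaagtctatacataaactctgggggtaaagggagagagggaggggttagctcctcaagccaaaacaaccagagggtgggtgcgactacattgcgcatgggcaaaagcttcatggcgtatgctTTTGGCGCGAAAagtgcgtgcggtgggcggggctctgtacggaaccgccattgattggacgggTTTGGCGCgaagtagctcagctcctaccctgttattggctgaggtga
Mcm7: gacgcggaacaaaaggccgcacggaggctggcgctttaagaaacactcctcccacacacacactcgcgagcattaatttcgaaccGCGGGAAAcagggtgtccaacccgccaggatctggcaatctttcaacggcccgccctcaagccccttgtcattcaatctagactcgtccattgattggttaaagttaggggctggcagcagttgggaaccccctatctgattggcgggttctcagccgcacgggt
Hells: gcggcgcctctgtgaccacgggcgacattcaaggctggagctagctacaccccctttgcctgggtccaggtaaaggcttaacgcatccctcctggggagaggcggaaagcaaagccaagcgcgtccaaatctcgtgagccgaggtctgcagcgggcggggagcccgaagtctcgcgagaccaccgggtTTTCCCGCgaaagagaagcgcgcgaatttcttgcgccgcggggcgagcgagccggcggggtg
Dtl: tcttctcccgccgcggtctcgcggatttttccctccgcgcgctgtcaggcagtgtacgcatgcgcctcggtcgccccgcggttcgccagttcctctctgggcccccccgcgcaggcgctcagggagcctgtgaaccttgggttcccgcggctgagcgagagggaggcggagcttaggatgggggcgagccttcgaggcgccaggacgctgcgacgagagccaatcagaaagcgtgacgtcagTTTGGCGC
In *Mcm5* and *Mcm6* a motif on one strand overlapped another on the opposite strand, and the run of capitals covers both. *Mcm6* had a further match 47 bases before the start, and in *Dtl* the match ended at the base next to the start. The RefSeq start can differ from that of the Gencode gene. The whole *Mcm7* window lay inside the Gencode gene, which starts at 138172422, and the *Hells* match lay past the Gencode start at 38930915. These are matches of letters and were not tested as binding sites.

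Nucleotide supply was represented by *Tyms*, thymidylate synthase, and by *Rrm1* and *Rrm2*, the subunits of ribonucleotide reductase. All 3 had a log2 fold change above 0, from 0.46 to 0.66, and none passed the test. *Rrm2* was detected in 28.8%, 13.6% and 17.0% of cells on the CA-ERBB2 plates and in 15.3%, 6.78% and 1.70% on the Control plates. The shares overlapped only through Control plate 1 and CA-ERBB2 plate 2. By level, *Rrm2* ranged from 23.6 to 38.0 CPM on the CA-ERBB2 plates and from 0.083 to 33.6 CPM on the Control plates.

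The chromatin and histone genes were split, with 3 of 7 above 0 and 4 below. *Nasp*, a histone chaperone, stood at 128, 57.9 and 307 CPM on the CA-ERBB2 plates and at 84.5, 62.5 and 54.3 CPM on the Control plates, with a log2 fold change of 1.29 and a standard error of 0.63 (edgeR adjusted p = 0.911). On CA-ERBB2 plate 3, 1 cell with 1206 genes detected held 67.4% of the *Nasp* counts, and without that plate the log2 fold change was 0.48. *Slbp*, which binds the stem-loop of histone mRNA, stood at 120, 64.4 and 71.0 CPM on the CA-ERBB2 plates and at 89.2, 219 and 109 CPM on the Control plates. On Control plate 2, where *Slbp* was highest, 1 cell held 45.5% of the counts. *Atad2*, a chromatin-binding ATPase, was at 34.1, 12.5 and 12.6 CPM on the CA-ERBB2 plates and at 42, 73.1 and 1.90 CPM on the Control plates. *Chaf1b*, a subunit of chromatin assembly factor 1, was at 18.5, 6.76 and 4.76 CPM on the CA-ERBB2 plates and at 10.7, 40.9 and 0.025 CPM on the Control plates. For both genes the 3 Control plates spanned the CA-ERBB2 plates. The other log2 fold changes were 1.41 for *Uhrf1*, which recognizes hemimethylated DNA, 0.33 for *Hells*, a chromatin remodeller, and -0.29 for *Casp8ap2*, with a role in histone gene expression, and none passed the test. *Uhrf1* ranged from 11.8 to 33.7 CPM on the CA-ERBB2 plates and from 1.72 to 12.9 CPM on the Control plates, an overlap through CA-ERBB2 plate 1 and Control plate 2 alone.

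The fork protection and repair genes centred on no difference, with a median log2 fold change of -0.05 and 4 of 9 above 0. *Tipin*, whose product stabilizes stalled forks with TIMELESS, had the highest level of the 42 genes per length over both genotypes, with 65 CPM per kb of exon in CA-ERBB2 and 71.4 CPM per kb in Control, although *Pcna* was higher in CA-ERBB2 at 84.8 CPM per kb. *Exo1* had the lowest level over both, 0.20 and 0.28 CPM per kb, although *E2f8* was lower in Control at 0.10 CPM per kb. *Tipin* stood at 83.3, 57.1 and 224 CPM on the CA-ERBB2 plates and at 81.0, 86.3 and 233 CPM on the Control plates. The 2 high plates were plate 3 of each genotype, and on Control plate 3 a cell with 809 genes detected held 73.9% of the counts. *Brip1*, a helicase of DNA repair, was at 4.56, 0.650 and 12.7 CPM on the CA-ERBB2 plates and at 6.09, 21.4 and 1.83 CPM on the Control plates. The log2 fold changes of the others were 1.39 for *Rad51ap1*, 0.97 for *Usp1*, a deubiquitinase that acts on PCNA, 0.87 for *Clspn*, which relays the checkpoint signal, 0.03 for *Ung*, which removes uracil from DNA, -0.05 for the helicase gene *Blm*, -0.24 for *Dtl*, a substrate receptor of a ubiquitin ligase, and -0.50 for the exonuclease gene *Exo1*. All 9 genes overlapped between the genotypes.

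Among the regulators, *E2f8*, a repressive E2F factor that is itself raised in S phase, had the highest log2 fold change of the 42, 2.98 with a standard error of 1.82 (edgeR adjusted p = 0.918). It was also one of the scarcest, at 5.81, 2.28 and 5.02 CPM on the CA-ERBB2 plates and at 1.22, 0.437 and 0 CPM on the Control plates. It was detected in 10.2%, 8.47% and 6.78% of cells on the CA-ERBB2 plates and in 5.08%, 5.08% and 0% on the Control plates. No other S phase gene separated the plates by the share of cells, as 1.25% of all genes tested did in this direction, and none did in the other direction, as 0.191% did. The two-sided exact permutation test gave 0.1 for *E2f8*, the smallest p that 3 plates against 3 allow, and 0.98 after adjustment over the 42 genes. On 4 of its 5 plates with counts, 1 cell held from 65.4% to 90.7% of the *E2f8* counts. *Wdr76*, a protein of the replication and repair machinery, was at 3.60, 1.91 and 1.56 CPM on the CA-ERBB2 plates and at 1.24, 11.9 and 0.579 CPM on the Control plates. *Ccne2*, cyclin E2 of the entry into S phase, had a log2 fold change of 0.81, *Ubr7* of 0.29 and *Cdca7* of -0.11, all with overlapping plates.

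Levels of single plates therefore often rested on 1 cell. A single cell held more than 50% of a gene's counts for 1 of the 42 genes on CA-ERBB2 plate 1 and for 4 on Control plate 1. On the other plates this was so for 25 and 20 genes in CA-ERBB2 and for 28 and 27 in Control. Outside the S-rich cells defined below, 24 cells had an S phase gene at 1000 CPM or more. These cells detected a median of 1483 genes, and 20 of the 24 had 3 or fewer of the 42 genes at 100 CPM.

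The list of 50 other replication genes and the 32 G2/M genes were read in the same test. Of the other replication genes, 29 of 50 were above 0 with a median log2 fold change of 0.13, and none was called. *Rfc3*, a further clamp loader subunit, had the lowest p, with a log2 fold change of 1.96 and an edgeR adjusted p of 0.911. *Rfc3* stood at 46.4, 25.2 and 248 CPM on the CA-ERBB2 plates and 33.8, 16.8 and 31.5 CPM on the Control plates, so that it was separated by CA-ERBB2 plate 3. Of the G2/M genes, 23 of 32 were above 0 with a median of 0.45, none was called, and none had an unadjusted p under 0.05. The lowest p values were those of *Cdk1*, the mitotic kinase, with a log2 fold change of 1.78, and *Kif20b*, a mitotic kinesin, with 1.53.

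The second question was which genes carried the S phase score, an average of log-normalized levels over the list less control genes of like expression, as Seurat computes it. The plate mean of the score was 0.141, -0.0032 and 0.156 on the CA-ERBB2 plates and -0.137, -0.0187 and -0.134 on the Control plates. The CA-ERBB2 plates lay above the Control plates, but CA-ERBB2 plate 2 exceeded Control plate 2 by only 0.0156. The means over plates were 0.0977 ± 0.0877 and -0.0964 ± 0.0673 (SD, n = 3), a difference of 0.194. No test was made of a score over chosen genes. The medians of the cells were lower than the means on the CA-ERBB2 plates, at -0.122, -0.0407 and -0.0418, and the Control medians were -0.379, -0.0660 and -0.0686.

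**Figure D2:**
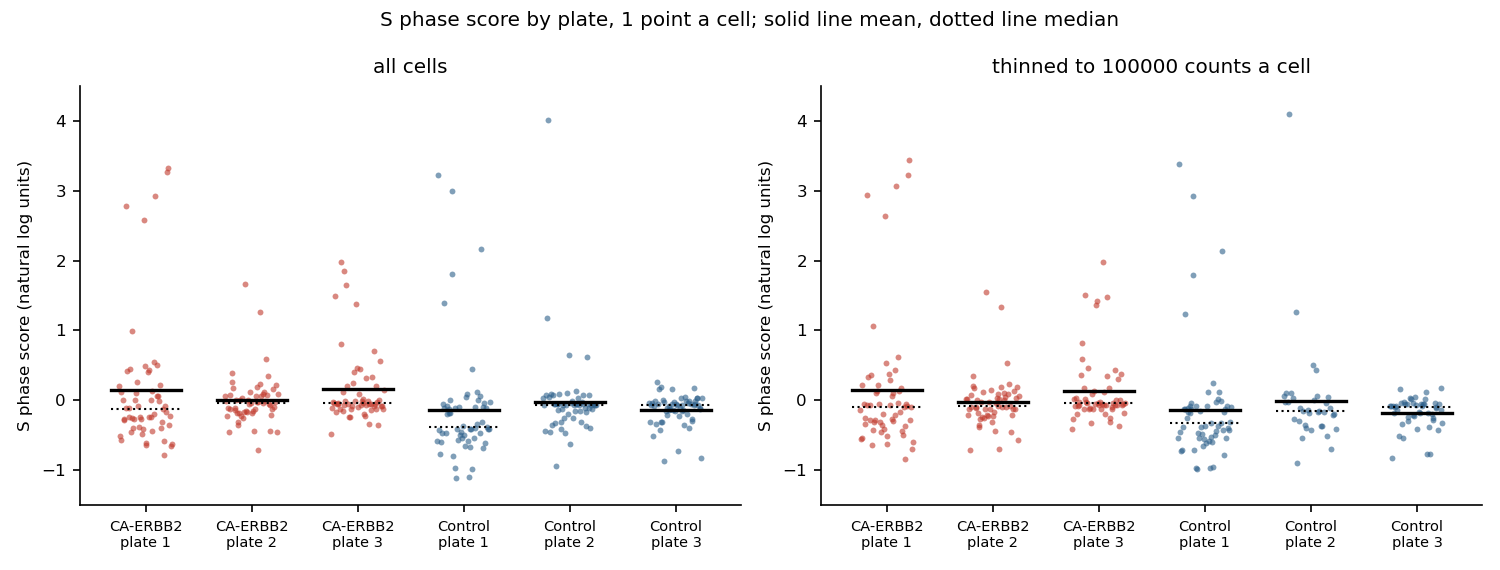
S phase score of every cell by plate, in natural log units, for all cells (left) and for cells thinned to 100000 counts (right), with the plate mean as a solid line and the median as a dotted line. A few cells with scores above 1.5 lift the means of both plates 1, and after thinning CA-ERBB2 plate 2, at -0.0307, lies below Control plate 2, at -0.0137.

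With every cell weighted equally, the plate mean of log2(CPM + 1) was higher in CA-ERBB2 cells for 40 of the 42 genes, against 62.6% of all genes tested, and limma gave none of the 42 an unadjusted p under 0.05. The largest differences belonged to *Pcna* (0.88), *Nasp* (0.84), *Mcm6* (0.79), *Rfc2* (0.77), *Mcm4* (0.75), *Tipin* (0.74), *Gins2* (0.68), *Mcm2* (0.66), *Mcm5* (0.61) and *Rrm1* (0.59) on that scale. These 10 genes, picked as the largest, made up 46.2% of the summed difference. Unlike the score, this measure subtracts no control genes, so it does not give the share of a gene in the score. *Mcm4* and *Tipin* were lower in CA-ERBB2 by the plate sums and higher by this measure. *Brip1* and *Pold3* were the 2 genes below 0.

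By plate number, the differences came from plates 1 and 3. On plate 1, 41 of 42 genes were higher in CA-ERBB2 cells, with a median difference of 0.68 in mean log2(CPM + 1), against 75.6% of all genes and a median of 0.21. On plate 3, 35 of 42 were higher with a median of 0.27, against 40.2% of all genes and a median of -0.03. On plate 2, 19 of 42 were higher with a median of -0.05, against 47.1% of all genes and a median of -0.01. For 16 genes CA-ERBB2 was higher for all 3 plate numbers, where 16.6% of all genes tested were. *Pcna* was one, at 5.13, 2.71 and 3.23 on the CA-ERBB2 plates against 4.21, 2.05 and 2.15 on the Control plates. *Rfc2* was another, at 4.53, 2.05 and 2.05 against 3.90, 1.43 and 1.01. *Mcm2* was not, since its difference was 2.17 on plate 1, -0.10 on plate 2 and -0.10 on plate 3. The plate numbers only named the plates and were not shown to pair them.

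The third question was how far detection of these genes followed the number of genes detected in a cell. The median number of the 42 genes with at least 1 count was 21, 5 and 3 per cell on the CA-ERBB2 plates and 14, 2 and 2 on the Control plates, which overlapped. The mean of the plate medians was 3.67 genes higher in CA-ERBB2, and 2 genes lower when CA-ERBB2 plate 1 was left out. Spearman's rho between S phase genes and all genes detected was 0.778 to 0.871 over the 59 cells of a CA-ERBB2 plate and 0.792 to 0.916 on a Control plate. Both counts share the depth of the cell, so this is a description. The score itself followed the genes detected less, with rho from -0.0688 to 0.0914 on the CA-ERBB2 plates and from -0.636 to -0.0119 on the Control plates.

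**Figure D3:**
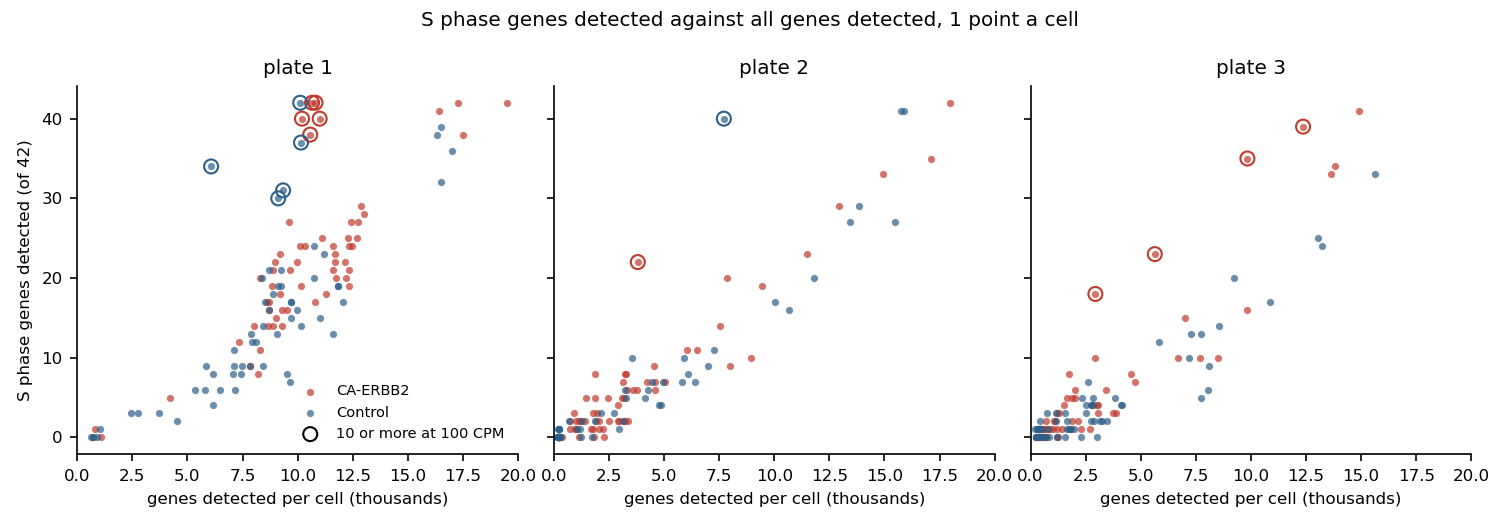
Number of the 42 S phase genes with at least 1 count against the number of all genes detected, divided by 1000, with 1 point a cell (red for CA-ERBB2, blue for Control) and a panel for each plate number. Rings mark the 16 cells with 10 or more S phase genes at 100 CPM, which lie above the band of the other cells of like gene number.

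Cells were then compared within classes of gene number. Cells with under 1000 genes detected had a median of 1 S phase gene in 27 CA-ERBB2 and 0 in 47 Control cells. Cells with 1000 to 3000 genes detected had a median of 2 S phase genes in both genotypes, over 47 CA-ERBB2 and 32 Control cells. Cells with 3000 to 6000 genes had 6 in 26 CA-ERBB2 and 5 in 25 Control cells. Cells with 6000 to 9000 genes had 14 in 25 CA-ERBB2 and 10 in 33 Control cells, and cells with 9000 or more had 24.5 in 52 CA-ERBB2 and 20 in 40 Control cells. The difference in S phase genes detected was thus 4 or more in the gene-rich cells and 1 or 0 in the classes under 6000 genes. The mean score did not follow this pattern. For CA-ERBB2 and Control cells it was -0.026 and -0.0205 under 1000 genes. It was 0.0656 and -0.101 at 1000 to 3000 genes and 0.0679 and -0.209 at 3000 to 6000. At 6000 to 9000 genes it was -0.1645 and -0.137, lower in CA-ERBB2, and at 9000 or more 0.332 and -0.0779. The class of 6000 to 9000 genes held 2 of the S-rich cells defined below in Control and 0 in CA-ERBB2. By plate its mean score was -0.177, -0.123 and -0.179 in CA-ERBB2 and -0.219, 0.564 and -0.391 in Control. Only Control plate 2, with 5 cells in this class, lay above its CA-ERBB2 plate of equal number. Within the 2 gene-rich classes CA-ERBB2 cells also detected more genes in all, a median of 8295 against 7710 and of 11699 against 10794. Most gene-rich cells were from plate 1, which held 40 of the 52 CA-ERBB2 cells and 27 of the 40 Control cells with 9000 or more genes. In the class of 6000 to 9000 genes, the plate medians were 15, 11 and 10 for CA-ERBB2 plates 1 to 3 and 11, 9 and 10 for Control plates 1 to 3. In the class of 9000 or more they were 24, 31 and 34.5 for CA-ERBB2 and 19, 27 and 24 for Control. Outside plate 1 the latter medians rested on few cells, 6 per CA-ERBB2 plate, 8 on Control plate 2 and 5 on Control plate 3. Leaving out wells A12 to D12 reduced this to 2 per CA-ERBB2 plate, 5 on Control plate 2 and 1 on Control plate 3. Pooled over plates, the median of this class without those wells was 23.5 for CA-ERBB2 and 19 for Control.

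Thinning every cell to 100000 counts left out 2 CA-ERBB2 and 33 Control cells with fewer. The median number of S phase genes detected was then 16, 2 and 1.5 on the CA-ERBB2 plates and 11, 5 and 1 on the Control plates. Control plate 2 thus moved above CA-ERBB2 plates 2 and 3. Its 36 remaining cells detected a median of 3063 genes after thinning, against 1839 and 1041 on those CA-ERBB2 plates. For 34 of the 42 genes (81.0%) the mean share of thinned cells with the gene was higher in CA-ERBB2, against 40.3% of all genes. Before thinning this was 41 of 42 (97.6%) against 74.2% of all genes.

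The fourth question was whether the S phase genes were found in the same cells. MCM2 to MCM7 act as 1 ring, so their joint detection was read first. At least 4 of the 6 *Mcm* genes were detected in 62.7%, 17.0% and 13.6% of cells on the CA-ERBB2 plates and in 33.9%, 11.9% and 6.78% on the Control plates. Over plates this was 31.1% ± 27.5 in CA-ERBB2 and 17.5% ± 14.4 in Control (SD, n = 3), a difference smaller than the spread. Without CA-ERBB2 plate 1 the difference turned from 13.6 to -2.26 percentage points. All 6 were detected in 22 of 177 CA-ERBB2 cells (12.4%, exact 95% interval 7.96% to 18.2%) and in 10 of 177 Control cells (5.65%, 2.74% to 10.1%). These intervals cover counting error only. None of the 6 was detected in 70 CA-ERBB2 and 87 Control cells. After thinning, 4 or more were detected in 35.6%, 8.62% and 13.8% of CA-ERBB2 cells by plate and in 20.3%, 13.9% and 2.04% of Control cells.

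With cells pooled over plates, detection of 1 *Mcm* gene went with detection of the others in both genotypes. CA-ERBB2 cells with *Mcm6* had 3.41 of the other 5 on average and those without it 0.569, while Control cells had 2.82 and 0.568. Cells with *Mcm6* also detected more genes, a median of 10442 against 2010 in CA-ERBB2 and 10118 against 2361 in Control. At 100 CPM, a level that few counts cannot reach in a deep cell, CA-ERBB2 cells with *Mcm5* had 3.18 of the other 5 and those without it 0.307, over 11 and 166 cells. Control cells had 2.22 and 0.214, over 9 and 168 cells. At least 4 of the 6 stood at 100 CPM in 7 CA-ERBB2 cells and 3 Control cells. Within plates, pairs of genes were compared by phi, the correlation of reaching 100 CPM over the cells of a plate. Its median over *Mcm* pairs was 0.499, 0.279 and 0.272 on the CA-ERBB2 plates and 0.392, 0.383 and -0.0246 on the Control plates. Over pairs of all S phase genes it was 0.323, -0.0246 and -0.0172 on the CA-ERBB2 plates and 0.274, 0.358 and -0.0246 on the Control plates.

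Over all 42 genes, cells fell apart by the number at 100 CPM or more. This number was 8 or less in 338 cells and 11 or more in 16 cells, with no cell between. The 16 are called S-rich cells. The level and the line were chosen after the counts were seen, and the cells were chosen by these genes, so their levels are given as a description. They comprised 10 CA-ERBB2 cells (5.65%, exact 95% interval 2.74% to 10.1%) and 6 Control cells (3.39%, 1.25% to 7.23%). By plate they numbered 5, 1 and 4 in CA-ERBB2 and 5, 1 and 0 in Control, which overlapped. With a line of 15 genes the numbers were 6 and 5, and with 20 genes they were 4 and 4.

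**Figure D4:**
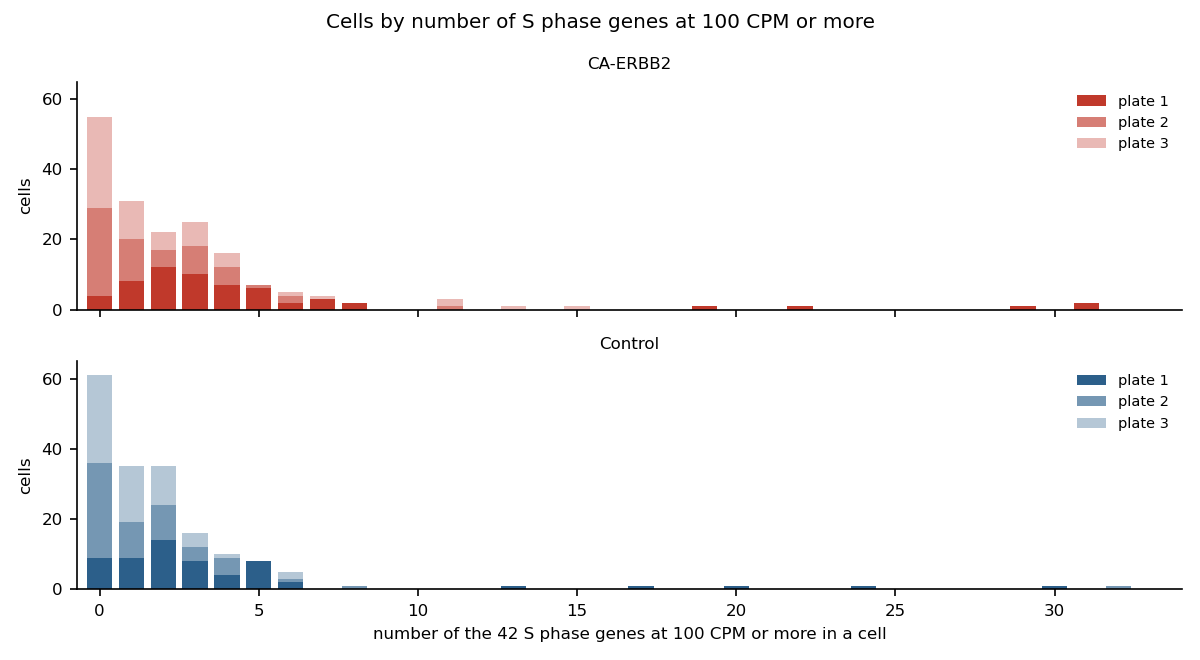
Number of cells (vertical axis) with each number of the 42 S phase genes at 100 CPM or more (horizontal axis), for CA-ERBB2 above and Control below, with plates 1 to 3 in lighter shades. No cell lies between 8 and 11, and the cells to the right of this gap are 10 CA-ERBB2 and 6 Control cells.

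The S-rich cells detected 18 to 42 of the S phase genes, with a median of 37.5, against a median of 5 in the other cells. For comparison at like gene number, again as a description of cells picked by these genes, cells with 9000 or more genes that were neither S-rich nor in wells A12 to D12 numbered 59 and had a median of 20 S phase genes detected and 2 at 100 CPM, whereas 11 S-rich cells with 9000 or more genes had 39 detected and 20 at 100 CPM. The cells of wells A12 to D12 had a median of 34.5 detected and 3 at 100 CPM, and 1 of the 24 was S-rich. In turn, 3 S-rich cells, all CA-ERBB2, detected under 6000 genes.

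The Control cell in well A3 of plate 2 had the most S phase genes at 100 CPM, 32, with a sum of 15920 CPM over the list. Next were the CA-ERBB2 cells in wells E1 and C3 of plate 1, with 31 each and sums of 9513 and 10310 CPM. In the CA-ERBB2 cells of plates 2 and 3 the number was 11 to 15. The fullest profiles thus came from plate 1 of both genotypes and from 1 cell of Control plate 2.

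**Figure D5:**
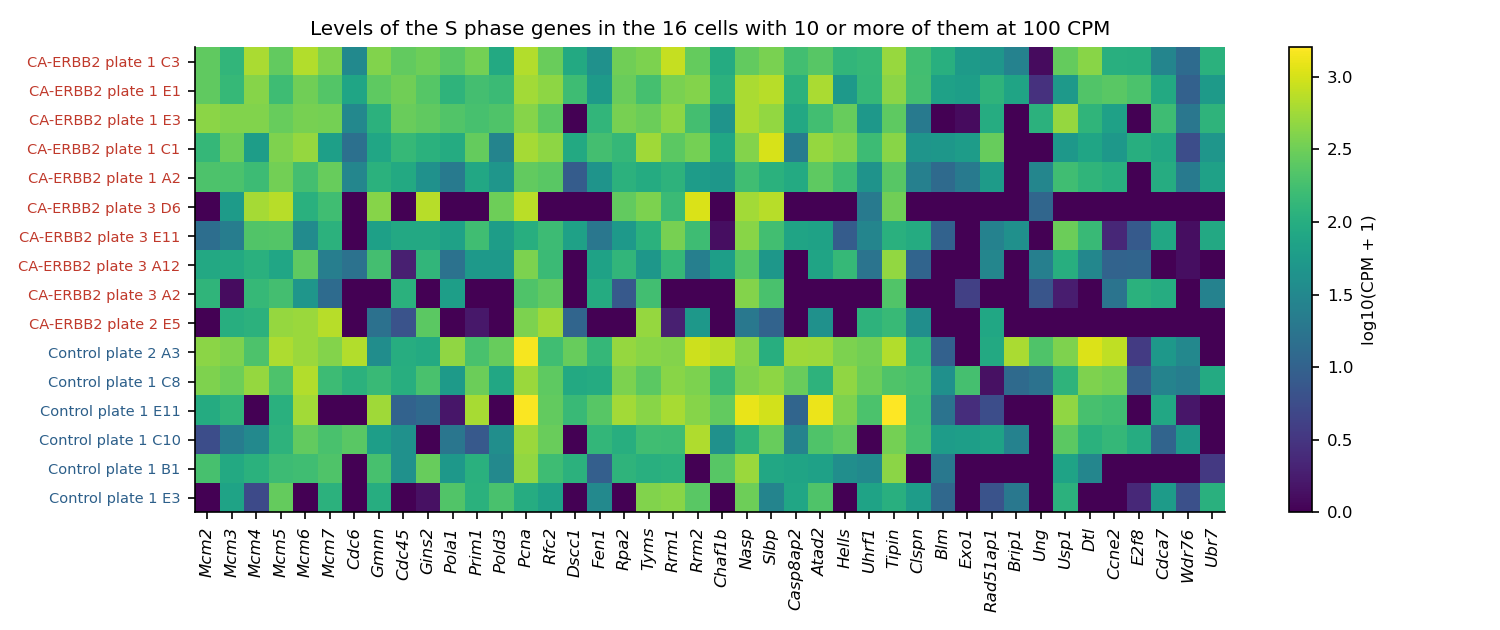
Levels of the 42 S phase genes (columns, in the order of their roles) in the 16 S-rich cells (rows, red labels for CA-ERBB2 and blue for Control), as log10(CPM + 1). *Tipin*, *Mcm5* and *Nasp* are high in nearly every row, and *Wdr76*, *Blm*, *Exo1* and *Brip1* in few or none.

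Among the 42 genes, *Tipin* reached 100 CPM in all 16 S-rich cells, *Mcm5* and *Nasp* in 15, and *Pcna*, *Rfc2*, *Tyms* and *Rrm1* in 14. At the other end, 9 genes did so in 3 or fewer, among them *Cdc6* in 3, *Exo1*, *Blm* and *Brip1* in 1 and *Wdr76* in 0. *Slbp* and *Nasp* were also at 100 CPM in 92 and 68 of the other cells, whereas *Mcm3*, *Mcm5*, *Gmnn* and *Rrm2* were at that level in 4 or 5 other cells. The S-rich cells held 67.1% of the *Mcm5* counts of CA-ERBB2 and 74.2% of those of Control. For *E2f8* these shares were 87.2% and 87.7%, and for *Rfc2* 20.5% and 20.3%. The genes that separated the genotypes by plate were thus not alike. With counts pooled over plates, most *Rfc2* and *Gins2* counts lay outside the S-rich cells and most *E2f8* and *Cdc45* counts within them. This did not hold on every plate. On CA-ERBB2 plate 2, 1 cell that was not S-rich held 92.0% of the *Cdc45* counts, and another held 83.5% of the *E2f8* counts.

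Other replication genes, which were not used to pick the cells, stood at 100 CPM for 3 to 35 of the 50 in an S-rich cell, with a median of 15.5, and for 0 to 10 in the other cells. Of the 32 G2/M genes the median was 9.5, with a range from 0 to 32, against a median of 0 and the same range in the other cells. *Mki67* or *Top2a*, both high in dividing cells, reached 100 CPM in 5 of 10 S-rich CA-ERBB2 cells and in 4 of 6 S-rich Control cells. Thus 7 S-rich cells had neither. Over all cells, 11 CA-ERBB2 and 10 Control cells had 1 of these genes at 100 CPM. The SC markers at 100 CPM numbered 1 to 5 of 12 in the S-rich cells, with a median of 2.5, and a median of 2 in the other cells.

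Of the 10 S-rich CA-ERBB2 cells, 4 had all 4 network genes *Spp1*, *Timp1*, *Mmp9* and *Dmp1* at 100 CPM, 1 on plate 1 and 3 on plate 3. These were 4 of 36 such cells (11.1%, exact 95% interval 3.11% to 26.1%), and none of the 36 was a Control cell. On plate 3 the network cells had a median of 10 S phase genes detected and 3404 genes detected in all, against 1 and 1227 in the other cells of that plate. On plate 2 they had 5 and 3136, against 3 and 2929. All these are counts from the same cells, and depth was not held equal.

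The genotype difference in the score lay more in the other cells than in the S-rich cells. The scores of the S-rich cells, divided by the 59 cells of the plate, added 0.252, 0.0283 and 0.116 to the means of CA-ERBB2 plates 1 to 3 and 0.196, 0.0680 and 0 to those of Control plates 1 to 3. The other cells added -0.112, -0.0315 and 0.0393 in CA-ERBB2 and -0.333, -0.0867 and -0.134 in Control. Averaged over plates, the part of the S-rich cells differed by 0.0443 between the genotypes and that of the other cells by 0.150. By plate number the S-rich part differed by 0.056, -0.0396 and 0.116, and the other part by 0.221, 0.0552 and 0.173. The S-rich cells held 45.1%, 9.25% and 25.3% of all counts of the 42 genes on the CA-ERBB2 plates and 47.6%, 37.2% and 0% on the Control plates. The plates 1 were thus alike in this share, and Control plate 3 lacked such cells. By the rule of 3 counts, 0 of 59 cells allows a share of up to 5.08%.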

How the data were processed

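Single SCs were sequenced with SMART-Seq Single PLUS, and the authors deposited 1 table of raw read counts per gene for each cell. Per the study's methods and the submitters' processing notes, reads were demultiplexed with bcl2fastq 2.19.1, trimmed, aligned with STAR 2.7.6a to GRCm38 with Gencode annotation and counted by strand over exons with featureCounts (Subread 2.0.1), followed by R 4.0.5 and Seurat 4.0.4. Reads carried no molecular identifiers, so a high count in 1 cell can include PCR copies, and intervals cover counting error only. Cell totals had a median of 2866362 counts.

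Counts of the 59 cells of each plate were summed and the 6 sums compared with edgeR 4.0.16 (TMM factors, filterByExpr, quasi-likelihood test, Benjamini-Hochberg over 21416 genes, threshold 0.05) in R 4.3.3, 3 plates against 3, with no covariate. All cells were kept. Detection meant at least 1 count. Shares per gene were compared by two-sided exact permutation over plates, and intervals are exact (Clopper-Pearson, 95%). The score came from AddModuleScore of Seurat 5.3.0 with 24 bins. Coordinates are from Gencode on GRCm38. The edgeR procedure was tested on simulated data. Alternatives were DESeq2 1.42.0, limma 3.58.1 on plate means of log2(CPM + 1), no filter, no TMM factors, a replicate block, cells with at least 100000 counts and under 20% mitochondrial counts, no wells A12 to D12, thinning, other levels of detection and each plate left out.

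Plate values are given for the 8 genes with the highest mean CPM, the 5 highest and 5 lowest log2 fold changes, genes without overlap and *Mcm2* to *Mcm7*. Values of *Gmnn*, *Rrm2* and *Uhrf1* were added after they were seen. Of the other replication and G2/M genes, the 2 with the lowest p in each list are named, except 1 that is not reported here. The S phase genes and all lists were chosen with earlier results of these data known.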

Additional observations from a re-analysis of the deposited data

How the results depend on the processing

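No S phase gene was called by DESeq2, by limma, without the filter on low counts, with the replicate block, under either restriction of cells or with any plate left out. Few genes were called at all. DESeq2 called 235 of 21416 genes and the fit without the filter 285 of 39201, and each other setting called 0 to 2. The number at an unadjusted p under 0.05, 2 by edgeR, was 5 with DESeq2 (4 higher, against 3.86% of all genes) and 4 without the filter on low counts (5.85% higher of all genes). It was 1 without wells A12 to D12 (1.94%) and 0 with limma (0.616%). With 1 plate left out it was 1 to 4, with 4 without CA-ERBB2 plate 2 (2.56% higher of all genes) and 1 without Control plate 1 (3.82%). The median log2 fold change stayed above 0, from 0.15 to 0.89 with 1 plate left out. The genes without overlap, higher or lower, then numbered 4 to 12. Of all genes, 7.3% to 12.4% were then higher without overlap, a share that leaves out the lower ones. The score difference was 0.165 to 0.245 with 1 plate left out, 0.376 as mean log2(CPM + 1) and 0.0332 as percent of genes detected, which are other units. With 1 plate left out, S phase genes detected per cell differed by -2 to 7.67 and cells with 4 or more *Mcm* genes by -2.26 to 22.3 percentage points, both turning without CA-ERBB2 plate 1. The scaling moved the split of higher and lower genes from 27 and 15 to 25 and 17 with plate totals, which put the median of all genes at -0.27, and to 40 and 2 with cells weighted equally.

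Weighting cells equally turned the sign of 15 of the 42 genes, 7 of them outside those with plate values, and reversed *Atad2* (0.063), *Cdc6* (0.10), *Chaf1b* (0.55), *Mcm4* (0.75), *Mcm7* (0.50), *Slbp* (0.058), *Tipin* (0.74) and *Wdr76* (0.20), and the filter on cells reversed *Mcm4* (0.99). Leaving out 1 plate moved several values by over 1.5 times, to 0.21 for *Prim1* and 0.20 for *Pcna* without CA-ERBB2 plate 3, 0.046 for *Mcm6* and 0.16 for *Mcm3* without CA-ERBB2 plate 1, 0.74 for *Mcm5* without Control plate 3, and -0.23 for *Slbp* and -0.16 for *Atad2* without Control plate 2. It gave ranges of -1.91 to 0.59 for *Brip1*, -1.58 to 0.89 for *Chaf1b*, -0.066 to 0.86 for *Mcm2*, -0.56 to 0.59 for *Mcm4*, -0.24 to 0.071 for *Mcm7*, -0.93 to 0.56 for *Tipin* and -1.48 to 1.37 for *Wdr76*. The causes were not tested. With plate number as a replicate block, 2 genes had an unadjusted p under 0.05, both higher, where 1.99% of all genes were. The median was then 0.61, and *Chaf1b* (1.11) and *Wdr76* (0.31) reversed. Plates of equal number correlated at 0.215, 0.0822 and 0.0773 in their deviations, each best with its own number, a hint from the data only. The lines of 8, 15 and 20 genes for S-rich cells were chosen after seeing the data. With 3 plates a genotype and most counts of many genes in 1 cell, these data limit what a plate sum can show.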
